A study of Mus musculus with 47 samples.

Results

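Genes of ribosome biogenesis and the nucleolus were followed through the day in muscle stem cells of mice kept on a high-fat or a control diet. They were picked by symbol. Every annotated Nol, Nop, Rrp, Utp and Polr1 gene with a number or letter code was taken, and Nifk, Gnl3, Grwd1, Noc2l, Noc3l, Noc4l, Gnl2, Rrs1, Bysl, Bop1, Pno1, Nob1, Mrto4, Fbl, Ncl and Npm1 were added. On the array this gave 55 of 17097 genes, and 52 of them were among the 10258 genes whose mean reached the level required for testing (5.80 on the log2 scale). Polr1b, Polr1e and Utp6 had means of 5.70, 5.04 and 5.61 and were left untested. Gnl3, Nol10, Utp14a and Utp25 also belong to the set by name and were not analysed here, since no probe set carried their symbol alone.

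The cells were satellite cells, which regenerate skeletal muscle, taken from wild type female C57B6/J mice that started their diet at 8 weeks of age, had free access to food and were 15 weeks old when killed after 7 weeks. The groups were high-fat and control mice at zeitgeber times ZT0, ZT4, ZT8, ZT12, ZT16 and ZT20, where ZT0 is by convention lights on, with 4 mice in each group except 3 at high-fat ZT16. Each mouse gave 1 array and the labels call the mice biological replicates. The mice of both diets at a time were killed on the same day and each time had its own day, so that differences between diets lie within days while, within a diet, time of day and collection day cannot be told apart.

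The nucleolus is where ribosomes are built. RNA polymerase I transcribes the ribosomal RNA precursor, small nucleolar ribonucleoproteins (snoRNPs) guide its chemical modification, the small subunit processome folds and cleaves its 18S part, and a separate set of factors matures the large subunit, while nucleolar chaperones such as nucleolin and nucleophosmin accompany the particles. Satellite cells are mostly quiescent in adult muscle, and their ribosome production is known to increase when they leave quiescence and grow.

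The stem cell label was set against marker genes. All 14 satellite cell markers passed the filter on low values, with a mean log2 value of 10.9 for Pax7, their defining transcription factor. The myogenic factor Myod1, listed here with activation and cycling genes, averaged 11.4. Immediate early genes, which respond to tissue dissociation, averaged from 8.27 for Ier2 to 12.7 for Fosb. Of the immune markers 2 of 9 passed the filter and the pan-leukocyte gene Ptprc averaged 3.85, and of the endothelial markers 3 of 9 passed. Of the fibro-adipogenic markers 6 of 9 passed, including Dcn at 10.2 and Col3a1 at 11.3, whereas Pdgfra averaged 4.37. Of genes listed as markers of other cells, 5 of 5 smooth muscle and pericyte markers passed, with Acta2 at 10.9, Myh11 at 10.6 and Rgs5 at 10.1. So did 5 of 5 Schwann cell markers, 8 of 10 myofibre markers and 2 of 3 erythroid markers, among them the haemoglobin gene Hba-a2. Some lay near the filter of 5.80. The myofibre markers that passed averaged from 5.82 for Tnnt3 to 6.57 for Mb, except Atp2a1 at 8.33. Of the Schwann cell markers S100b averaged 5.82 and Mag 6.14, whereas Mbp averaged 9.22 and Ncam1 11.2. Passing the filter does not show which cells expressed a gene, and whether listed markers came from other cells was not tested. Arrays of a group resembled each other, with mean correlations from 0.969 to 0.987. The median SD within groups was 0.17 over the 52 genes and 0.16 over all genes tested, in log2 units. The method by which the cells were isolated is not given in the sources used here.

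The 4 genes with the smallest p in the comparison of diets averaged over the day were Nifk, Nop56, Nol8 and Ncl. Their upstream sequences are shown because these genes lead the comparison of diets. Each is the 250 bases before the gene's start, 5′ to 3′ on the gene's strand, from RefSeq on GRCm38.p6. Capitals mark GC boxes in either orientation, the only motif of those searched that these 4 windows held. Nifk lies on the plus strand (window chr1:118321593-118321842, 52.8% G or C, 0 GC boxes), as do Nop56 (chr2:130274162-130274411, 65.2%, 1 GC box) and Nol8 (chr13:49652828-49653077, 63.6%, 2 GC boxes). Ncl lies on the minus strand (chr1:86359456-86359705, 69.6%, 3 GC boxes).
Nifk: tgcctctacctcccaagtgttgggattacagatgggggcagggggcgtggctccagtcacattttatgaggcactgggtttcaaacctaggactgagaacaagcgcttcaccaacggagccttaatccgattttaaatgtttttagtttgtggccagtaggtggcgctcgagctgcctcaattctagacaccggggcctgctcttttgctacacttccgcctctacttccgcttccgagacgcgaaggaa
Nop56: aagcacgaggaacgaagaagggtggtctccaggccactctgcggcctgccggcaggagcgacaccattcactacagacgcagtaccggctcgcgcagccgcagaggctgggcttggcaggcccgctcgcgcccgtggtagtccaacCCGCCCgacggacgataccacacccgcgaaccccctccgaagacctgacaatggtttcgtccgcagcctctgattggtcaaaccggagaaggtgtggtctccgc
Nol8: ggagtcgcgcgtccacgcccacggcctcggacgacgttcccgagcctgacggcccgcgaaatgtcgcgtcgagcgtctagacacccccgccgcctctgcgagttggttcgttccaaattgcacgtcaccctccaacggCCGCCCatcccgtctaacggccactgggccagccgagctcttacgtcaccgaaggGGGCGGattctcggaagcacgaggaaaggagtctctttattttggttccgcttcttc
Ncl: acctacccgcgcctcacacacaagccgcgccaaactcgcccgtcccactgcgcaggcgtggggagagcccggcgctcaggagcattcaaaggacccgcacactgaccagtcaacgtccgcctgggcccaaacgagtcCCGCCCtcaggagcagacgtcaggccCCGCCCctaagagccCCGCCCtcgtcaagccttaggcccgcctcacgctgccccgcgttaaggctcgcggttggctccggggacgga

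Such windows were matched for 42 of the 55 genes and for 8254 of the genes tested. Motifs were searched as exact letters on both strands, and overlapping matches were counted for each motif. The GC box GGGCGG occurred in 28 of the 42 windows (66.7%), against 63.4% of the windows of all genes tested. The E-box CACGTG, the sequence bound by MYC and by clock factors, occurred in 5 (11.9%, against 10.2%), namely those of Nol11, Nop2, Rrp7a, Utp14b and Utp18. The ETS motif CCGGAAG occurred in 9 (21.4%, against 14.8%), among them Grwd1, Nolc1 and Nop2. The palindromic NRF1 motif occurred in 0 of the 42, against 1.82% of the windows of all genes tested. Shares were not tested and a match describes letters in the window only.

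Averaged over the 6 times, 13 of the 52 genes were lower in high-fat mice than in control mice and 0 were higher (25.0% lower). Over all 10258 genes tested, 6.8% were lower and 4.7% higher at the same threshold, an adjusted p under 0.05. The median log2 difference, high-fat minus control, was -0.09 over the 52 genes, with a range from -0.65 to 0.16, and -0.01 over all genes tested. It was below 0 for 43 of the 52 genes, against 55.1% of all genes tested. At 6 of 6 times 5 of the 52 genes (9.62%) had a lower mean in high-fat mice, and at 5 of 6 times 12 (23.1%), against 382 and 1434 of all 10258 genes. Utp11 was the only gene of the set with a lower mean at 1 time only, and 0 genes of the set had none. RNA was measured in bulk, so fewer cells of a type and less RNA per cell cannot be told apart.

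The nucleolar chaperones and scaffolds were all lower on the high-fat diet, 4 of 4. Nifk, which binds the Ki-67 protein and serves in pre-rRNA processing, had a lowest, median and highest log2 value of 6.27, 7.29 and 8.37 in 23 high-fat mice, against 6.82, 7.96 and 8.81 in 24 control mice. The ranges overlap across the day, and the difference at matched times averaged -0.65 ± 0.09 (SE; adjusted p = 6.51e-06), or 0.636 times the control level. Ncl encodes nucleolin, which takes part in polymerase I transcription and in pre-rRNA folding. Its values were 9.07, 9.67 and 10.15 in high-fat mice, against 9.51, 9.96 and 10.38 in control mice, a difference of -0.25 ± 0.05 (adjusted p = 0.000929). Nolc1, a scaffold that carries snoRNPs through the nucleolus, differed by -0.21 ± 0.06 (adjusted p = 0.018). Npm1, the histone chaperone nucleophosmin, differed by only -0.07 ± 0.01 (adjusted p = 0.00204), with 11.71, 11.79 and 11.92 in high-fat mice, against 11.71, 11.85 and 11.98 in control mice. Npm1 varied little between mice, with an SD of 0.05 over all high-fat and 0.07 over all control mice.

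In the snoRNP core 3 of 4 genes were lower. Nop56, a core protein of the box C/D particles that methylate ribosomal RNA, had 8.96, 9.55 and 10.02 in high-fat mice, against 9.30, 9.84 and 10.07 in control mice, a difference of -0.28 ± 0.05 (adjusted p = 0.00017). Fbl, the methyltransferase fibrillarin of the same particles, differed by -0.15 ± 0.04 (adjusted p = 0.0159), and Nop10, a protein of the box H/ACA particles that convert uridine to pseudouridine, by -0.13 ± 0.04 (adjusted p = 0.024). Nop58, the partner of Nop56 in the C/D particle, was at 0.04 ± 0.03 and did not pass. The C/D core thus held genes on either side of the threshold, and a difference between Nop56 and Nop58 was not tested.

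Factors of the large subunit were lower for 6 of 16 genes, and 0 were higher. Nol8, a nucleolar protein of large subunit maturation, had 5.53, 6.49 and 7.17 in high-fat mice, against 5.90, 6.95 and 7.95 in control mice, a difference of -0.50 ± 0.09 (adjusted p = 0.000333). Grwd1, a WD repeat protein whose yeast counterpart escorts ribosomal protein L3, had 6.57, 7.50 and 8.69 in high-fat mice, against 6.86, 8.25 and 9.30 in control mice, a difference of -0.63 ± 0.15 (adjusted p = 0.00549). Both genes spread widely within each diet and their ranges overlap. The others were Nop16 (-0.32 ± 0.08, adjusted p = 0.00752), Mrto4, which prepares the stalk of the large subunit (-0.27 ± 0.06, adjusted p = 0.00251), Nop2, an rRNA cytosine methyltransferase (-0.17 ± 0.05, adjusted p = 0.022), and Nol9, a polynucleotide kinase of 28S processing (-0.21 ± 0.07, adjusted p = 0.0456). Just outside the threshold lay Rrs1, which brings the 5S particle into the large subunit (-0.21 ± 0.07, adjusted p = 0.0514), and Noc3l (-0.17 ± 0.06, adjusted p = 0.054). Bop1, a scaffold of the PeBoW complex, was at -0.02 ± 0.05.

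Among factors of the small subunit 0 of 21 passed in either direction, with a median of -0.06 and a range from -0.18 for Rrp12 to 0.16 for Utp11. Nob1, the nuclease that makes the 3′ end of 18S rRNA, was at -0.12 ± 0.09. Of the 3 polymerase I genes tested 0 passed: Polr1a, the largest subunit, was at -0.10 ± 0.05, Polr1d at -0.09 ± 0.04 and Polr1c at -0.03 ± 0.03. The remaining genes, Nol3, Nol4, Nol4l and Nol12, were not placed in any of these role groups here, and 0 of the 4 passed. Whether the roles differ from each other was not tested, and 21 of the 52 genes were lower and 2 higher at an unadjusted p under 0.05, which 26.7% of all genes reached in either direction.

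**Figure D1:**
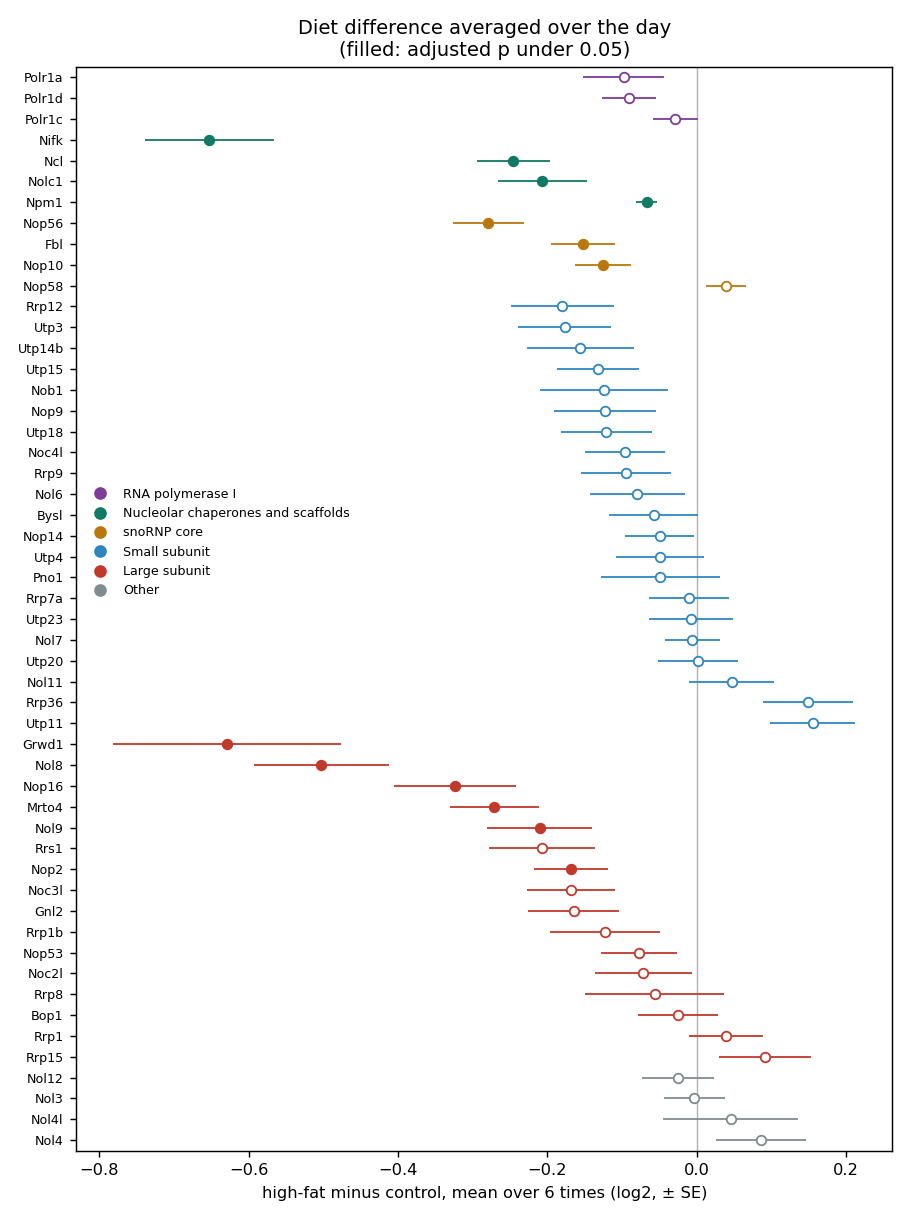
Difference in log2 expression between high-fat and control mice, averaged over 6 times, for each of the 52 genes tested, with horizontal bars of ± 1 SE and colours for the gene's role. Filled points passed an adjusted p of 0.05, and all 13 of them lie left of 0, among the chaperones, the snoRNP core and the large subunit factors.

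The average differences held well when mice were left out singly, and rested in part on ZT16. The count lay between 12 and 16 without any 1 of the 47 mice, and 12 of the 13 genes passed in every such fit, the exception being Nol9. In at least 1 such fit 1 gene was higher. With cyclic loess 1 gene was higher and 11 lower, with the mean of all probe sets 1 and 17, and with array weights 1 and 18. Without the mice of ZT16, 7 genes passed (Nifk, Nop56, Nol8, Ncl, Npm1, Nop16 and Nol9), and over all genes the count also fell, to 584 from 1180 with all mice. Mrto4 then stood at -0.20 (adjusted p = 0.0741), Grwd1 at -0.52 (adjusted p = 0.0596), Fbl at -0.11 (adjusted p = 0.151), Nop2 at -0.12 (adjusted p = 0.22), Nop10 at -0.08 (adjusted p = 0.273) and Nolc1 at -0.10 (adjusted p = 0.4).

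Where a gene had more than 1 probe set carrying its symbol alone, the others were compared with the chosen, brightest set, and 31 of the 55 genes had several. Nifk, Nop56, Ncl, Mrto4 and Nop2 had only 1 such set, so their differences could not be compared with another set. Sets carrying several symbols were left out and not examined. For these sets p-values were adjusted over all probe sets fitted together. The second probe sets of Fbl (-0.19 ± 0.04), Npm1 (-0.15 ± 0.03), Nop16 (-0.44 ± 0.08) and Nop10 (-0.22 ± 0.06) were lower in high-fat mice too. The further sets of Nol8 stood at -0.29 ± 0.09 (adjusted p = 0.0448) and -0.21 ± 0.08 (adjusted p = 0.0817), and those of Nol9 at -0.15 ± 0.07 and -0.16 ± 0.07, short of the threshold, which the chosen Nol9 set also missed in this fit (adjusted p = 0.059). The further sets of Nolc1 stood at -0.15 ± 0.08 (adjusted p = 0.282) and, for a set averaging 5.26, at -0.46 ± 0.13 (adjusted p = 0.0218). For Grwd1 the chosen set and another set differed in size, at -0.63 ± 0.15 and -0.10 ± 0.08, and the remaining set, averaging 5.43, stood at -0.32 ± 0.09. Rrs1, just outside the threshold on its chosen set, had another set at -0.63 ± 0.14 (adjusted p = 0.00495). Rrp1b, at -0.12 ± 0.07 and not called on its chosen set, had another at -0.24 ± 0.06 (adjusted p = 0.0135). Polr1a stood at -0.10 on the chosen set and at 0.06 and 0.03 on the others.

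The differences were spread unevenly over the day. At each time the 52 genes' values were first reduced to 1 number per mouse, the median over the genes of the log2 value minus that gene's mean over all 47 arrays. At ZT0 this relative level ranged from -0.06 to 0.03 in high-fat mice, against 0.12 to 0.27 in control mice, and at ZT8 from -0.01 to 0.09 in high-fat mice, against 0.17 to 0.26 in control mice. At these times every high-fat mouse lay below every control mouse. At ZT16 it ranged from -0.34 to -0.17 in high-fat mice, against -0.09 to 0.11 in control mice, again without overlap. At ZT4 the range was 0.03 to 0.20 in high-fat mice, against -0.10 to 0.11 in control mice, at ZT12 it was -0.17 to 0.04 against -0.03 to 0.09, and at ZT20 -0.19 to 0.03 against -0.26 to 0.07. These ranges overlap. The same median over all genes tested stayed between -0.05 and 0.03 in high-fat mice and between -0.03 and 0.05 in control mice.

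**Figure D2:**
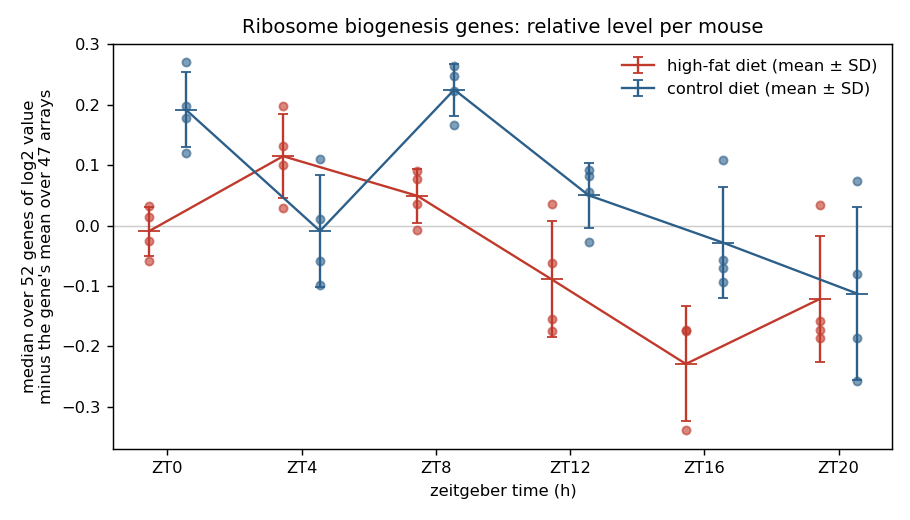
Relative level of the 52 genes in each of 23 high-fat and 24 control mice (points, median over genes of the log2 value minus the gene's mean over 47 arrays) by zeitgeber time, with group means and bars of ± 1 SD. High-fat mice lie below all control mice at ZT0, ZT8 and ZT16 and overlap with them at ZT4, ZT12 and ZT20.

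At ZT0 the median difference was -0.19 over the 52 genes and -0.03 over all genes, and 43 of the 52 were below 0. Ncl had log2 values of 9.68, 9.28, 9.45 and 9.46 in high-fat mice, against 10.10, 9.85, 9.93 and 10.11 in control mice. Every high-fat mouse was below every control mouse, and the difference of -0.53 ± 0.12 passed (adjusted p = 0.00911). It was the only gene of the 52 to pass, while 2.23% of all genes tested were lower and 1.33% higher at ZT0. Nop16 (-0.65 ± 0.20, adjusted p = 0.055), Nop56 (-0.36 ± 0.12, adjusted p = 0.0681) and Nifk (-0.64 ± 0.21, adjusted p = 0.0766) came next. The count of 1 became 3 without high-fat ZT0 replicate 3, and 2 without control ZT0 replicate 2, control ZT4 replicate 1 or 3, control ZT12 replicate 4, high-fat ZT0 replicate 2, high-fat ZT8 replicate 4 or high-fat ZT12 replicate 1 or 2. It was 4 with array weights and with the mean of all probe sets, all lower.

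At ZT4 the sign was turned for most genes. The median difference was 0.12, against 0.01 over all genes, and 39 of the 52 genes were above 0. None of the 52 passed (0.312% of all genes did), and 11 had an unadjusted p under 0.05, 10 of them higher in high-fat mice, while 12.3% of all genes had such a p. The smallest p belonged to Rrp15, a large subunit factor, at 0.47 ± 0.15 (adjusted p = 0.141), followed by Polr1c at 0.20 ± 0.07 (adjusted p = 0.217), Noc4l at 0.34 ± 0.13 (adjusted p = 0.237) and Noc3l at 0.37 ± 0.14 (adjusted p = 0.241).

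At ZT8 the median was -0.17, against -0.02 over all genes, and 2 of the 52 genes were lower (1.02% of all genes were, and 1.78% differed in either direction). Npm1 had 11.82, 11.85, 11.79 and 11.79 in high-fat mice, against 11.98, 11.94, 11.96 and 11.97 in control mice, a difference of -0.15 ± 0.04 (adjusted p = 0.0225). Nifk had 7.75, 7.58, 7.26 and 7.54 in high-fat mice, against 8.80, 8.14, 8.37 and 8.20 in control mice, a difference of -0.85 ± 0.21 (adjusted p = 0.0259). Neither gene's groups overlapped. Ncl (-0.42 ± 0.12, adjusted p = 0.0518) and Nol9 (-0.57 ± 0.17, adjusted p = 0.0647) lay outside the threshold. The count of 2 fell to 0 without control ZT8 replicate 1 or 3 or high-fat ZT8 replicate 3 or 4, and to 1 without high-fat ZT8 replicate 2 or without the intensity trend. It was 10 with array weights and 5 with the mean of all probe sets of a gene, all lower.

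At ZT12 the median was -0.12, against 0.00 over all genes, and 4 of the 52 genes were lower, against 0.39% of all genes, and 0.858% of all genes differed in either direction. Utp15 belongs to the early small subunit complex that couples polymerase I transcription to processing. Its values were 8.67, 8.74, 8.56 and 8.39 in high-fat mice, against 9.30, 9.32, 9.17 and 9.60 in control mice, a difference of -0.76 ± 0.13 (adjusted p = 0.0064). Nop56 had 8.96, 9.63, 9.06 and 9.50 in high-fat mice, against 9.82, 10.06, 9.82 and 9.93 in control mice, a difference of -0.62 ± 0.12 (adjusted p = 0.0064). In both genes every high-fat mouse was below every control mouse. Mrto4 had 7.66, 7.97, 7.95 and 8.21 in high-fat mice, against 8.69, 8.53, 8.51 and 8.77 in control mice (-0.68 ± 0.15, adjusted p = 0.0206). Nifk had 6.27, 7.29, 6.47 and 6.81 in high-fat mice, against 7.61, 7.34, 7.57 and 7.75 in control mice (-0.86 ± 0.21, adjusted p = 0.0368). The groups of these genes did not overlap either, although the second high-fat mouse came close to the controls for Nifk. Utp15 and Nop56 passed without any 1 mouse, and the count was 2 without control ZT12 replicate 4 or high-fat ZT12 replicate 1 or 3.

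At ZT16, in the dark phase by convention, 14 of the 52 genes were lower and 0 higher, against 7.13% lower and 6.13% higher among all genes. The median difference was -0.20, against -0.02 over all genes. Nifk had 7.11, 6.74 and 6.70 in 3 high-fat mice, against 8.44, 7.89, 8.27 and 8.41 in control mice, a difference of -1.40 ± 0.22 (adjusted p = 4.53e-05) or 0.378 times the control level. Nolc1 had 8.19, 8.25 and 7.81 in high-fat mice, against 8.94, 8.76, 8.86 and 8.69 in control mice (-0.73 ± 0.15, adjusted p = 0.00128). Every high-fat mouse lay below every control mouse in both. Gnl2, a GTPase of large subunit maturation, had 8.18, 8.31 and 8.02 in high-fat mice, against 8.97, 8.52, 8.94 and 8.86 in control mice (-0.65 ± 0.16, adjusted p = 0.00505). Mrto4 had 8.02, 8.33 and 8.13 in high-fat mice, against 8.83, 8.54, 8.92 and 8.89 in control mice (-0.63 ± 0.16, adjusted p = 0.0053). These groups were apart as well. The other 10 genes were Nol8, Rrs1, Rrp1b, Nop2 and Grwd1 of the large subunit, Nop10, Nop56 and Fbl of the snoRNPs, and Rrp12 and Utp23 of the small subunit, with differences from -1.15 for Grwd1 to -0.34 for Fbl.

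The ZT16 count depended on single mice. Of the high-fat ZT16 mice, leaving out replicate 3 gave 3 genes, replicate 1 gave 7 and replicate 2 gave 8, and of the control ZT16 mice replicate 3 gave 5 and replicates 1 and 4 gave 9 each. Without high-fat ZT16 replicate 3 the count over all 10258 genes fell as well, to 598 from 1360. In that fit the share of the 52 genes that passed in either direction was near that of all genes. With the replicate number as a block it was 9, and with array weights 16 genes were lower and 1 higher. Nifk, Nolc1 and Mrto4 passed without any 1 mouse. The diets differed in more of the other genes as well, since 13.3% of all genes tested passed at ZT16, against 0.312% to 3.56% at the other times. Whether the high-fat or the control arrays of ZT16 stood apart was not tested. The part of either in the result, beyond the fits without these mice, was not tested.

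At ZT20 the differences were near 0, with a median of -0.01 against -0.02 over all genes. Nol11, a partner of Utp15 in the early small subunit complex, had 7.88, 8.19, 7.68 and 8.23 in high-fat mice, against 7.26, 6.93, 7.45 and 7.67 in control mice. Every high-fat mouse was above every control mouse, by a narrow margin between the lowest and the highest. The difference of 0.67 ± 0.14 (adjusted p = 0.00776) was the only one of the 52 to pass in either direction (0.302% of all genes were higher, 0.517% lower and 0.819% either), and it no longer passed without control ZT20 replicate 2 (adjusted p = 0.0691), while 0 genes passed with the mean of all probe sets. Utp15 was at 0.40 ± 0.13 (adjusted p = 0.138) and Npm1 at -0.10 ± 0.04 (adjusted p = 0.152).

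**Figure D3:**
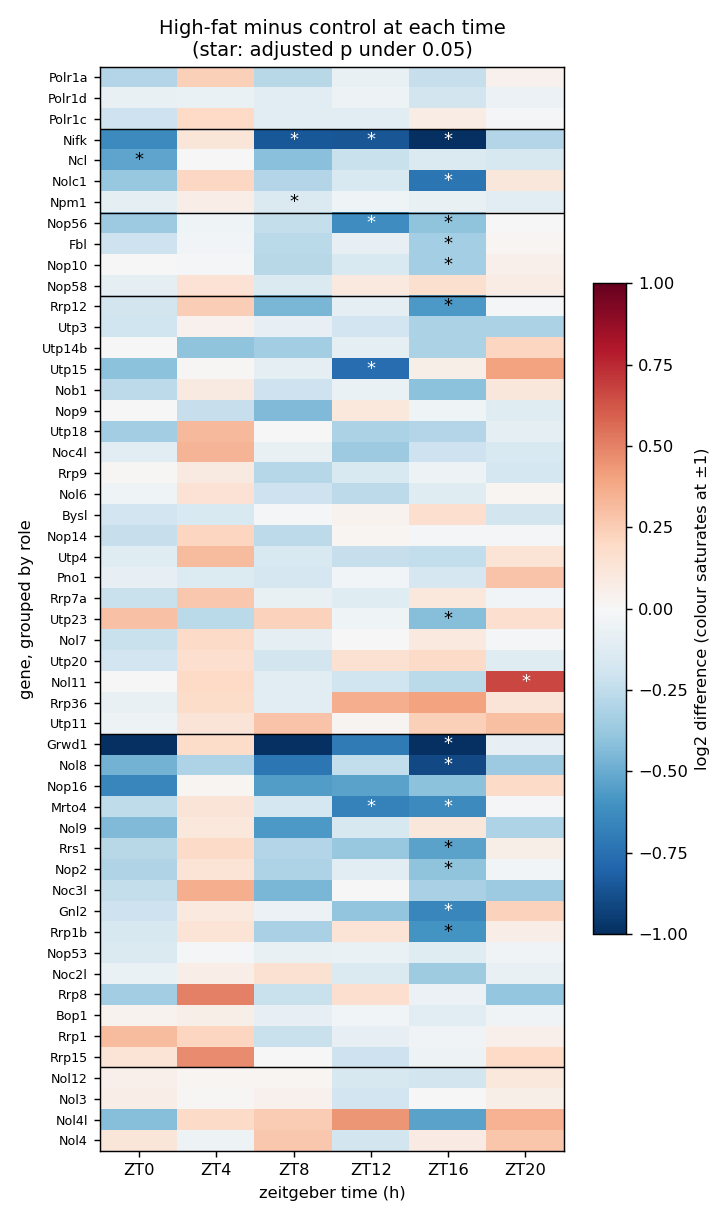
Log2 difference, high-fat minus control, of the 52 genes at each of 6 zeitgeber times, in colour (blue lower, red higher in high-fat mice), with genes grouped by role and stars at an adjusted p under 0.05. Blue prevails at ZT0, ZT8, ZT12 and ZT16 and red at ZT4, and 14 of the stars stand at ZT16.

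Whether the diet difference itself changed with time was tested with an interaction. It passed for 12 of the 52 genes (12.4% of all genes), listed here with the smallest p first as Utp15, Nol11, Nifk, Nolc1, Mrto4, Noc3l, Gnl2, Utp23, Npm1, Nop56, Polr1c and Nop58. The share of the 52 genes, 23.1%, was thus above that of all genes, without a test of that excess. The difference of Utp15 (adjusted p = 0.00124) ran from -0.76 at ZT12 to 0.40 at ZT20, and that of Nol11 (adjusted p = 0.00865) from -0.27 at ZT16 to 0.67 at ZT20. Both genes belong to the same early complex, although only 3 of the 21 small subunit factors passed, these and Utp23. Whether the complex moved as a unit was not tested. In control mice Utp15 had means of 9.35 at ZT12 and 8.49 at ZT20, whereas its high-fat means were 8.59 and 8.89. For Nifk (adjusted p = 0.0105) the difference ran from -1.40 at ZT16 to 0.12 at ZT4, for Nolc1 (adjusted p = 0.0155) from -0.73 to 0.21 at the same times, and for Mrto4 (adjusted p = 0.0226) from -0.68 at ZT12 to 0.13 at ZT4.

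Nop58, not called on average, entered this list (adjusted p = 0.0495) with a difference of -0.15 ± 0.06 at ZT8 and of 0.16 ± 0.07 at ZT16. Polr1c, a subunit shared by RNA polymerases I and III, stood at -0.21 ± 0.07 at ZT0 and 0.20 ± 0.07 at ZT4 (adjusted p = 0.0447). Without high-fat ZT16 replicate 3 the interaction count was 6, without all mice of ZT16 it was 3, and with the replicate number as a block it was 7. Over all genes it fell to 837 from 1276 without high-fat ZT16 replicate 3. Utp15, Nol11, Nifk and Mrto4 passed without any 1 mouse.

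**Figure D4:**
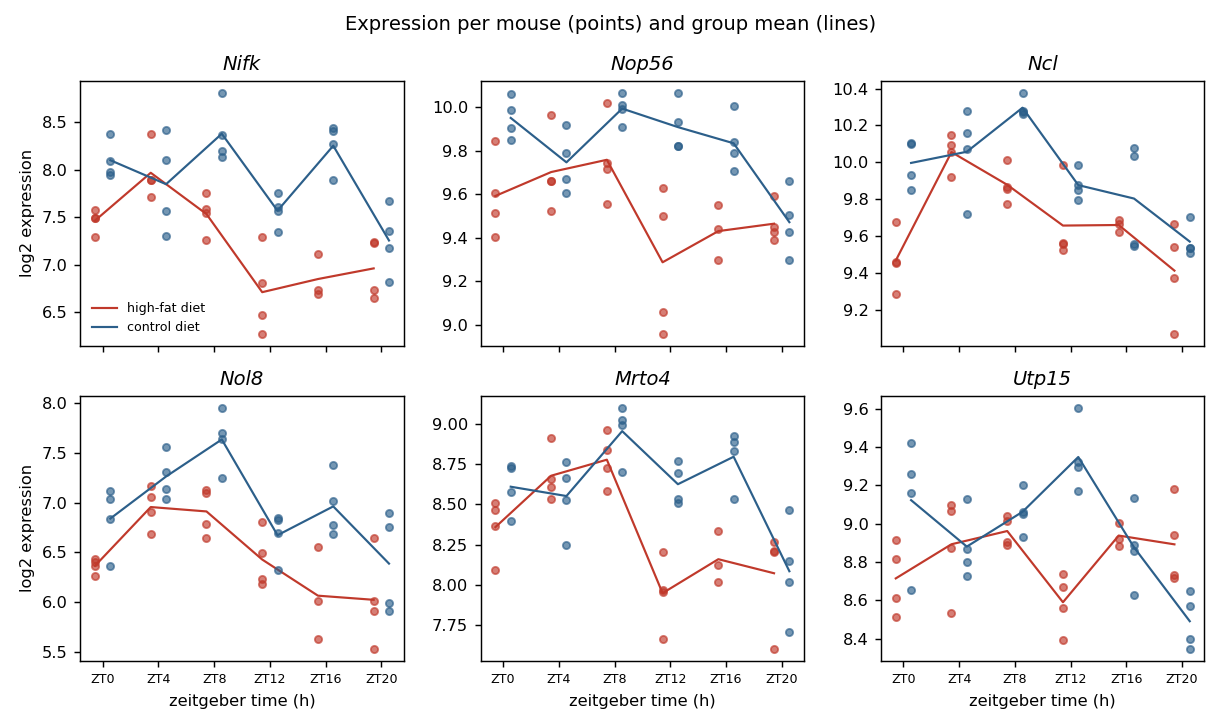
Log2 expression of Nifk, Nop56, Ncl, Nol8, Mrto4 and Utp15 in each high-fat and control mouse (points) by zeitgeber time, with lines through the group means. High-fat mice lie below all control mice for Nifk at ZT0, ZT8, ZT12 and ZT16, Nop56 at ZT0, ZT12 and ZT16, Ncl at ZT0 and ZT8, Nol8 at ZT8 and ZT16, Mrto4 at ZT12 and ZT16 and Utp15 at ZT12, and above them for Utp15 at ZT20.

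Within each diet a 24 h cosine was fitted, whose amplitude is the distance from the mean to the peak in log2 units. On the high-fat diet 21 of the 52 genes followed it (16.9% of all genes), on the control diet 8 (10.5% of all genes). The gap between these counts depended on the model: with array weights they were 23 and 19, and an F test over the 6 times, which takes any difference between days, gave 33 in high-fat mice and 34 in control mice. Shares of all genes in these settings are not given here, so these counts compare the diets and not the set with other genes. The median amplitude was 0.17 on the high-fat diet and 0.15 on the control diet over the 52 genes, against 0.12 and 0.11 over all genes tested. The high-fat genes comprised 10 of 16 large subunit factors, 3 of 4 chaperones, 2 of 4 snoRNP genes, 2 of 3 polymerase I genes and 4 of 21 small subunit factors. Those of the control diet comprised 5 of 16 large subunit factors, Ncl, Nop58 and the apoptosis repressor gene Nol3. Bop1, Ncl, Noc3l, Nol8 and Rrp15 passed on both diets.

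Peaks of these genes fell in the light phase by convention. On the high-fat diet 19 of the 21 fitted peaks lay between 2 and 8 h, against 44.8% of the peaks of all 1731 genes that passed on that diet, and their median was 4.73 h. On the control diet 6 of 8 lay there, against 37.7% of all, with a median of 6.69 h. Noc3l, a large subunit factor, reached its fitted maximum at 4.97 ± 0.63 h, with amplitude 0.43 ± 0.07, in high-fat mice (adjusted p = 0.000211), against 4.98 ± 1.06 h and 0.26 ± 0.07 in control mice (adjusted p = 0.0363). Bop1 had 0.32 ± 0.06 at 4.99 ± 0.67 h on the high-fat diet, against 0.28 ± 0.06 at 5.59 ± 0.76 h on the control diet. Ncl had 0.27 ± 0.06 at 6.97 ± 0.81 h on the high-fat diet, against 0.29 ± 0.06 at 6.52 ± 0.75 h on the control diet. Nol8 had 0.52 ± 0.10 at 6.14 ± 0.73 h on the high-fat diet, against 0.46 ± 0.10 at 6.86 ± 0.82 h on the control diet. For these 4 genes the fitted peaks of the diets lay within 1 h of each other. The fitted peak of Rrp15 was at 5.01 ± 0.86 h with an amplitude of 0.29 ± 0.07 in high-fat mice, against 8.87 ± 1.01 h and 0.24 ± 0.06 in control mice, and the test of its rhythm difference did not pass (adjusted p = 0.194).

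Others passed on the high-fat diet alone. Nifk peaked at 3.67 ± 0.70 h there with an amplitude of 0.61 ± 0.12 (adjusted p = 0.000917). Mrto4 peaked at 4.85 ± 0.76 h on the high-fat diet with an amplitude of 0.39 ± 0.08 (adjusted p = 0.00214), against 9.10 ± 1.11 h and 0.26 ± 0.08 on the control diet, just outside the threshold (adjusted p = 0.0504). Noc2l, whose yeast counterpart pairs with that of Noc3l, had 0.40 ± 0.08 at 6.45 ± 0.73 h on the high-fat diet, against 0.23 ± 0.08 at 7.85 ± 1.24 h on the control diet (adjusted p = 0.086). Passing on a single diet does not show a difference between them. The test of that difference, which takes up the shared collection days, passed for 0 of the 52 genes (2.11% of all genes) with limma, and 9 had an unadjusted p under 0.05, against 18.9% of all genes. It passed for 2 genes with array weights or with contrasts of the group means, and for 1 without control ZT20 replicate 2, high-fat ZT0 replicate 4 or high-fat ZT12 replicate 2. The smallest p belonged to Mrto4 (adjusted p = 0.0738) and Nifk (adjusted p = 0.0873).

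The plain group means were set beside these fits. Of the 52 genes 22 had their highest high-fat mean at ZT4 and 22 their lowest at ZT16, against 21.3% and 26.6% of all genes. In control mice 26 had their highest mean at ZT8 and 25 their lowest at ZT20, against 22.6% and 16.2% of all genes. A further 14 were highest at control ZT0 (16.6% of all genes). At control ZT4, inside the window of 2 to 8 h, 1 was highest and 8 were lowest, against 15.1% and 16.1% of all genes. The mean relative level in control mice was 0.19 at ZT0, -0.01 at ZT4 and 0.22 at ZT8, a dip that a single 24 h cosine does not follow. How well the cosine described the control course was not tested. The number of genes that followed the cosine rested in part on single mice and days, while shifts of the peak times in these fits were not examined. The high-fat count was 12 without high-fat ZT16 replicate 3 and 10 without the mice of ZT16, and it was 8 with the collection day as a random block. Without high-fat ZT16 replicate 3 the count over all genes fell to 1284 from 1731. The control count was 14 without control ZT4 replicate 4, 5 without any 1 of the control ZT8 mice or without control ZT20 replicate 2 or 3, and 2 with the day as a random block.

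**Figure D5:**
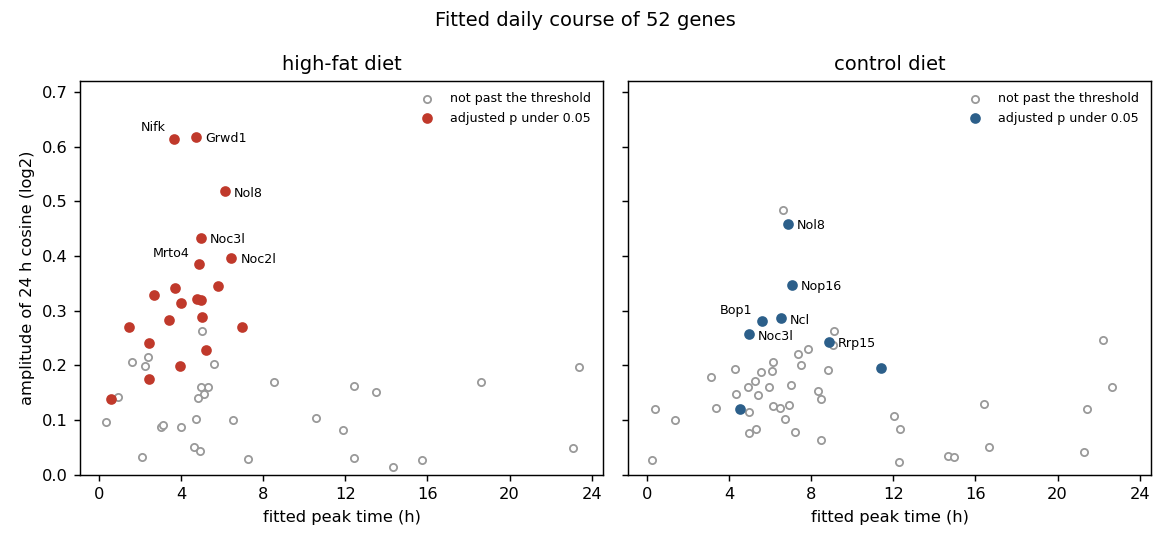
Amplitude of the fitted 24 h cosine (log2) against the fitted peak time (h) of the 52 genes, on the high-fat diet (left) and the control diet (right), with filled points at an adjusted p under 0.05 and names at the 6 largest amplitudes among them. On the high-fat diet 19 of 21 filled points lie between 2 and 8 h, on the control diet 6 of 8.

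The genes also varied together from mouse to mouse once group means were removed. Over the 1326 pairs of the 52 genes the median correlation across the 47 mice was 0.15, and 976 pairs were above 0, against a median of 0.01 over all pairs of genes tested. Fbl followed the median of the other genes most closely (r = 0.81), then Nolc1 (0.75), Rrs1 (0.75) and Npm1 (0.72). Nol3 (-0.35), Nol4 (-0.30) and Utp14b (-0.19) ran against it. All genes of a mouse share its array and its RNA, so these correlations are descriptions.

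Other ribosome biogenesis genes, which do not carry the names used for the choice, were described alongside. Of 76 tested, 11 were lower and 0 higher on average over the day (6.8% and 4.7% of all genes), with a median of -0.10. At ZT16 18 were lower and 0 higher (7.13% and 6.13% of all genes), with a median of -0.24. At ZT0 1 was lower and at ZT4, ZT8, ZT12 and ZT20 0 passed, with a median above 0 at ZT4 (0.09). Examples on average were Ppan (-0.22 ± 0.04, adjusted p = 0.00017), Wdr74 (-0.34 ± 0.09), Rsl1d1 (-0.19 ± 0.05) and the RNA helicase gene Ddx21 (-0.21 ± 0.06). At ZT16 they were Ppan (-0.66 ± 0.10), Ddx21 (-0.83 ± 0.15), Mphosph10 (-0.78 ± 0.14) and Ddx27 (-0.92 ± 0.19). On the high-fat diet 25 of the 76 followed a 24 h course (16.9% of all genes did), such as Ebna1bp2 (amplitude 0.42 ± 0.06) and the pseudouridine synthase gene Dkc1 (0.53 ± 0.09). On the control diet 8 did, near the 10.5% of all genes. Of 8 RNA exosome genes 0 passed on average. Of 64 cytosolic ribosomal protein genes 19 were lower and 0 higher on average, with a median of only -0.04, and 1 followed a daily course on the high-fat diet and 0 on the control diet.

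Regulators upstream of this machinery were mostly outside the threshold. Of 15 polymerase I initiation factors and MYC network genes 0 passed on average, against 11.5% of all genes. At ZT16 2 of the 15 passed, near the 13.3% of all genes, Mycn (-0.76 ± 0.17, adjusted p = 0.00205) and the MYC antagonist gene Mxi1 (0.46 ± 0.16, adjusted p = 0.0418). On the high-fat diet 2 of the 15 followed a daily course, against 16.9% of all genes. Among them was Rrn3, which recruits polymerase I to its promoter (0.33 ± 0.07, adjusted p = 0.00402). In the group linking the 5S particle to p53, Cdkn1a (-0.19 ± 0.04, adjusted p = 0.00121) and Rpl11 (-0.06 ± 0.02, adjusted p = 0.0372) were lower on average, 2 of 4 tested, against 6.8% of all genes.

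Markers of cell state and of other cells moved alongside. For comparison, 4.7% of all genes tested were higher and 6.8% lower on average, 6.13% and 7.13% at ZT16, and 1.33% and 2.23% at ZT0. Of 14 satellite cell markers 6 were higher on average in high-fat mice, such as Heyl (0.18 ± 0.03) and Des (0.21 ± 0.04), and 0 were lower, and the list's mean level ranged from 9.84 to 10.27 in high-fat mice, against 9.81 to 10.03 in control mice. Of 10 activation and cycling genes 1 was lower on average, Myod1 (-0.28 ± 0.04, adjusted p = 8.2e-06), and at ZT16 also Ccnd1 (-0.78 ± 0.20, adjusted p = 0.00797), while 1 was higher and 2 lower at ZT0, with list means from 7.14 to 8.27 in high-fat mice, against 7.34 to 8.44 in control mice. Of 11 immediate early genes, which respond to tissue dissociation, 7 were higher at ZT16 and 0 lower, such as Junb (0.43 ± 0.08), whereas at ZT0 2 were lower and 0 higher and on average 3 were higher and 1 lower, with list means over all times from 11.08 to 11.46 in high-fat mice, against 11.09 to 11.34 in control mice. Of fibro-adipogenic genes 2 of 6 were higher on average (list means 10.18 to 11.05 in high-fat mice, against 9.98 to 10.92 in control mice) and of Schwann cell genes 2 of 5 were higher and 1 lower (7.74 to 8.48 in high-fat mice, against 7.72 to 8.31 in control mice). Of smooth muscle and pericyte genes 1 of 5 was lower (8.19 to 9.55 in high-fat mice, against 8.50 to 9.89 in control mice), of immune genes 1 of 2 was lower (6.99 to 7.82 in high-fat mice, against 7.18 to 8.64 in control mice), and of endothelial, myofibre and erythroid genes 0 of 3, 0 of 8 and 0 of 2 passed. The part of cell state, dissociation or other cells in the differences of the ribosome biogenesis genes was not tested.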

How the data were processed

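The deposited table holds log2 expression values per probe set, made with RMA per the submitters' processing notes, a method that corrects background, equalises array distributions and summarises probes. The sources used here give neither its version nor its settings. Equalising the arrays makes every difference relative to most genes, and compresses that of dim probe sets. Per the labels' protocols, 25 ng of RNA was amplified over 17 cycles and 8 µg of cDNA labelled. Array medians lay between 5.86 and 5.94. Arrays have no read depth, so their number limits the precision.

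Of 45141 probe sets, 28898 carried 1 gene symbol in the platform annotation and 551 several, and sets with several or no symbols were left out. Each gene was represented by its brightest probe set over the 47 arrays, and genes below the 40th percentile (5.80) were not tested. Tests used R 4.3.3 and limma 3.58.1 (lmFit, eBayes with an intensity trend), two-sided, with Benjamini-Hochberg adjustment over 10258 genes and a threshold of 0.05. Diet differences are contrasts of the 12 group means, the interaction is an F test of 5 contrasts, and the daily course an F test of cosine and sine. The difference in rhythm was tested with time as a factor of 6 levels. Models were tested on simulated data. Genes were named as those with the smallest p (up to 10 for averages, interaction and rhythms, up to 4 at each time and in each list), beside role-defining genes. The set and the lists were chosen with earlier results of these data known.

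Replicate numbers are shared between groups in the labels. Mice with the same number at a time did not deviate together (correlations of deviations from group means from -0.19 to 0.11 over 23 pairs, median -0.01), so the numbers were not taken to pair them. Alternatives were the filter, the mean of all probe sets, cyclic loess, no trend, array weights, the replicate number as a block, other rhythm models, leaving out each mouse and leaving out ZT16. Leaving out ZT20 was chosen after seeing the data.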

Additional observations from a re-analysis of the deposited data

Results flagged for a closer look

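In groups of 4 mice, 8 of 154 sets of values held a mouse far from the other 3, measured as its gap to the nearest other mouse over the whole range of the group. Chance flags about 1 in 20 such groups. Ncl was high in high-fat ZT12 replicate 2 (9.98, against 9.53 to 9.56 in the others, gap 0.921 of the range). It was also high in control ZT8 replicate 2 (gap 0.859) and control ZT20 replicate 4 (gap 0.869). Npm1 was high in high-fat ZT0 replicate 3 (gap 0.847) and Mrto4 low in high-fat ZT20 replicate 3 (7.60, against 8.20 to 8.27, gap 0.902). Control ZT8 replicate 1 was low for Nop2 (gap 0.846) and high for Nop10 (gap 0.875). The median over the 52 genes was high in high-fat ZT20 replicate 4 (0.03, against -0.19 to -0.16, gap 0.871).

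The diet difference changed between times for 12 genes by the interaction test in limma. Their adjusted p-values were 0.00124 for Utp15, 0.00865 for Nol11, 0.0105 for Nifk, 0.0155 for Nolc1, 0.0226 for Mrto4, 0.0267 for Noc3l, 0.0295 for Gnl2, 0.0353 for Utp23, 0.0362 for Npm1, 0.0417 for Nop56, 0.0447 for Polr1c and 0.0495 for Nop58. Of these, Utp15, Nol11, Nifk and Mrto4 passed without any 1 of the 47 mice.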

How the results depend on the processing

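No diet difference that was tracked changed sign under any alternative run. Tracked in each comparison were the genes that passed, those with the smallest p and, for the diet average, some role-defining genes. Signs of the remaining genes of the 52 were not tracked. Some of these had probe sets on either side of 0, such as Nol11 on average (0.05 on the chosen set, -0.11 and -0.13 on 2 others). Amplitudes, interaction ranges and counts cannot change sign, so they could not reverse. For the diet average, the count of genes higher on the high-fat diet was 1 instead of 0 with cyclic loess, the mean of all probe sets or array weights. Leaving out each of the 47 mice singly gave 12 to 16 genes of the 52 for the diet average, 1 to 3 at ZT0, 0 at ZT4, 0 to 3 at ZT8, 2 to 4 at ZT12, 3 to 14 at ZT16, 0 to 1 at ZT20, 6 to 14 for diet by time, 12 to 22 and 5 to 14 for the daily course on the high-fat and the control diet, and 0 to 1 for the difference in rhythm. Over all 10258 genes these fits gave 969 to 1256 for the diet average, 598 to 1406 at ZT16 and 837 to 1392 for diet by time. For the high-fat course they gave 1284 to 1791. Other settings that moved a count by over 1.5 times were these, listed here without the shares of all genes. With the mean of all probe sets 4 genes passed at ZT0, 5 at ZT8 and 0 at ZT20. With the 60th percentile as filter 2 passed at ZT0, and without an intensity trend 1 at ZT8. Array weights gave 4 at ZT0, 10 at ZT8, 19 for the control course and 2 for the difference in rhythm. With the replicate number as a block, which is not a pairing of mice here, 9 passed at ZT16 and 7 for diet by time. Without the ZT16 mice 7 passed on average, 3 for diet by time and 10 for the high-fat course. With the day as a random block 8 passed for the high-fat and 2 for the control course. An F test over the 6 time points, open to any difference between days, gave 33 for the high-fat and 34 for the control course. Contrasts of group means gave 2 for the difference in rhythm, and leaving out ZT20, chosen after seeing the data, gave 4 for it and 4 for the control course. The causes were not tested. For the tracked single genes, 5311 values kept their side of the threshold, 456 no longer passed and 63 passed anew. Only the diet differences among them could have changed sign, and none did. Utp23 (mean 5.85) and Pno1 (mean 5.99) lay closest to the filter on low values.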

Other observations

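In 19 of the 52 genes none of the 11 comparisons passed. They were Bysl, Nob1, Nol4, Nol4l, Nol6, Nol7, Nol12, Nop9, Nop14, Nop53, Pno1, Rrp1, Rrp7a, Rrp9, Rrp36, Utp3, Utp11, Utp14b and Utp20. Rrp36 and Utp11 were the genes of the set with the most positive averages, at 0.15 ± 0.06 and 0.16 ± 0.06, short of the threshold.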
